A study of Drosophila melanogaster with 4 samples.

Results

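The Jonah, trypsin and Ser genes of Drosophila melanogaster encode secreted serine proteases. Members were the genes whose symbol is Jon or Ser followed by a digit, or ends in Try. This gave 31 of the 14794 genes in each of 2 deposited tables: 16 Jonah genes, 11 trypsins and 4 Ser genes. The symbols set the membership, but the families were selected on earlier CVM folds of these data, those of Jon99Fi, Jon99Fii and betaTry among them, so the CVM values are a description and support nothing further.

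RNA was sequenced from 4 embryonic cell populations separated by flow cytometry, with 1 library each. Caudal visceral mesoderm (CVM) cells, which migrate along the gut primordium, and the embryo's other cells came from stages 10 to 13; hemocytes (HC), the embryonic blood cells, and the other cells of their embryos came from stages 12 to 16. The tables carry the names CVM and HC, and only these names tie each to its pair of populations. No genotype, strain or sorting marker is given in the labels used here. Each table calls its conditions q1 and q2. Neither name occurs in the sample labels, so neither was assigned to the sorted cells, and a negative log2 fold means higher in q1.

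Serine proteases of this kind cut proteins with a catalytic serine, and are made as inactive precursors that are cut to become active. Trypsins cut after basic residues, whereas chymotrypsin-like enzymes prefer large hydrophobic ones. The Jonah genes were named for their transcription in the gut, and together with the trypsins they belong to the digestive enzymes of the midgut in larvae and adults. The embryonic midgut forms while the caudal visceral mesoderm migrates, and later carries the muscle made by it.

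Members were short genes gathered in clusters. Placed by the coordinates of the deposited tables (BDGP5), the 11 trypsins lay in 20689 bases of chromosome arm 2R, from 7224353 to 7245041. The Jonah genes formed groups named for their cytological bands. Jon25Bi, Jon25Bii and Jon25Biii lay at 2L, 4949947 to 4955353, and the 4 Jon65A genes at 3L, 6032257 to 6047526. Further along 3L lay Jon66Ci and Jon66Cii, at 8384642 to 8386749, and Jon74E, at 17539968 to 17542143. On 3R the 3 Jon99C genes lay at 25747931 to 25751907 and the 2 Jon99F genes at 26312735 to 26315625. Jon44E, on 2R at 4578955 to 4579856, stood alone. The Ser genes were dispersed, with Ser12 on 2L, Ser8 on 2R, and Ser6 and Ser7 on X.

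All 31 members were matched by gene ID in the later BDGP6 annotation, which was used for gene structure only. There, 25 of 31 members (80.6%) had their coding sequence in 1 exon, against 2925 of 13986 protein-coding genes (20.9%). Their proteins were 245 to 397 residues long, with a median of 262, where the median over all protein-coding genes was 391. Ser7 was the longest, at 397 residues. Many neighbours had the same length: Jon99Fi and Jon99Fii had 267 residues, Jon99Cii and Jon99Ciii 265, alphaTry and epsilonTry 256, and betaTry, gammaTry and deltaTry 253.

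The tables differed in how many members they could assess. A gene has the status OK when the authors' program tested it, and NOTEST when it had too few aligned reads for a test. In CVM, 24 of 31 members were OK (77.4%), against 67.8% of all genes. The HC table had 5 of 31 OK (16.1%), against 72.7% of all genes. By family, 15 of 16 Jonah genes, 8 of 11 trypsins and 1 of 4 Ser genes were OK in CVM, and 1, 3 and 1 in HC. Both tables tested 4 members, the CVM table alone tested 20, the HC table alone 1, and neither tested 6. The statuses describe reads in 2 libraries, and in such bulk samples fewer cells of a type and less RNA per cell cannot be told apart.

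**Figure D1:**
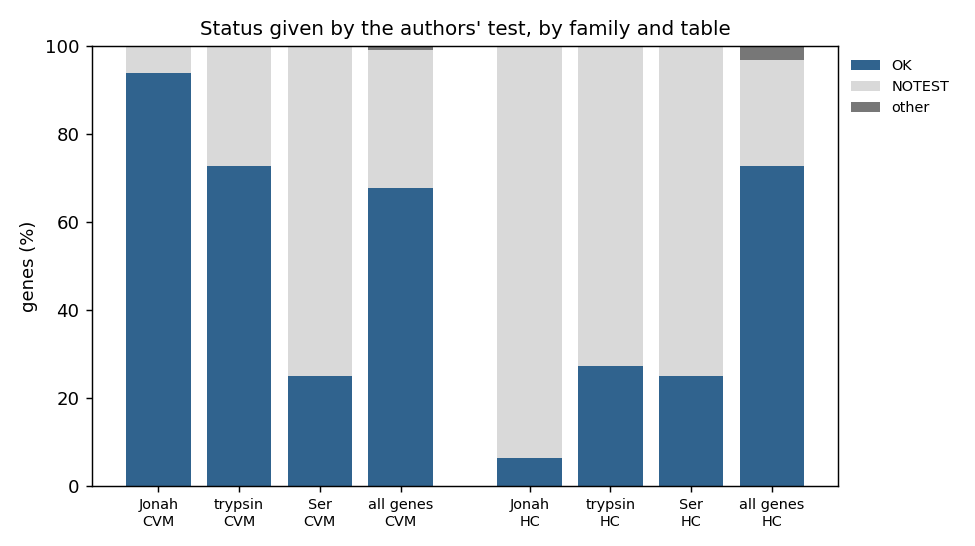
Share of genes (%) by the status of the authors' test, for each family and for all genes, in the CVM and HC tables. The Jonah bar is 93.8% OK in CVM and 6.25% in HC, while all genes stand at 67.8% and 72.7%.

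Nearly every member with a direction lay on the q1 side of the CVM table. Over all statuses, 27 of the 28 members with a direction were toward q1 (96.4%), against 53.9% of all genes with one. The exception was Jon66Cii. Among members of status OK, 19 had a finite fold, and they are called measured here; 17 of them were at least 2-fold higher in q1, where 17.6% of the 9580 measured genes of the authors' deposited table were. Another 1 was at least 2-fold higher in q2, where 4.58% of measured genes were. The authors called 13 members at a q-value under 0.05, all of them higher in q1, where 8.23% of tested genes were called higher in q1 and 0.728% higher in q2. The median log2 fold was -4.25 for the 12 measured Jonah genes and -4.21 for the 7 measured trypsins, against 0.00 (0.0047) over all measured genes in the authors' deposited table. The standard error that the authors' statistic implies ran from 0.79 to 2.15 log2 units over these members, with a median of 1.04. It covers reads of 2 libraries and no variation between samples, which 1 library per population cannot show, and the authors' q-values likewise compare libraries, not conditions.

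**Figure D2:**
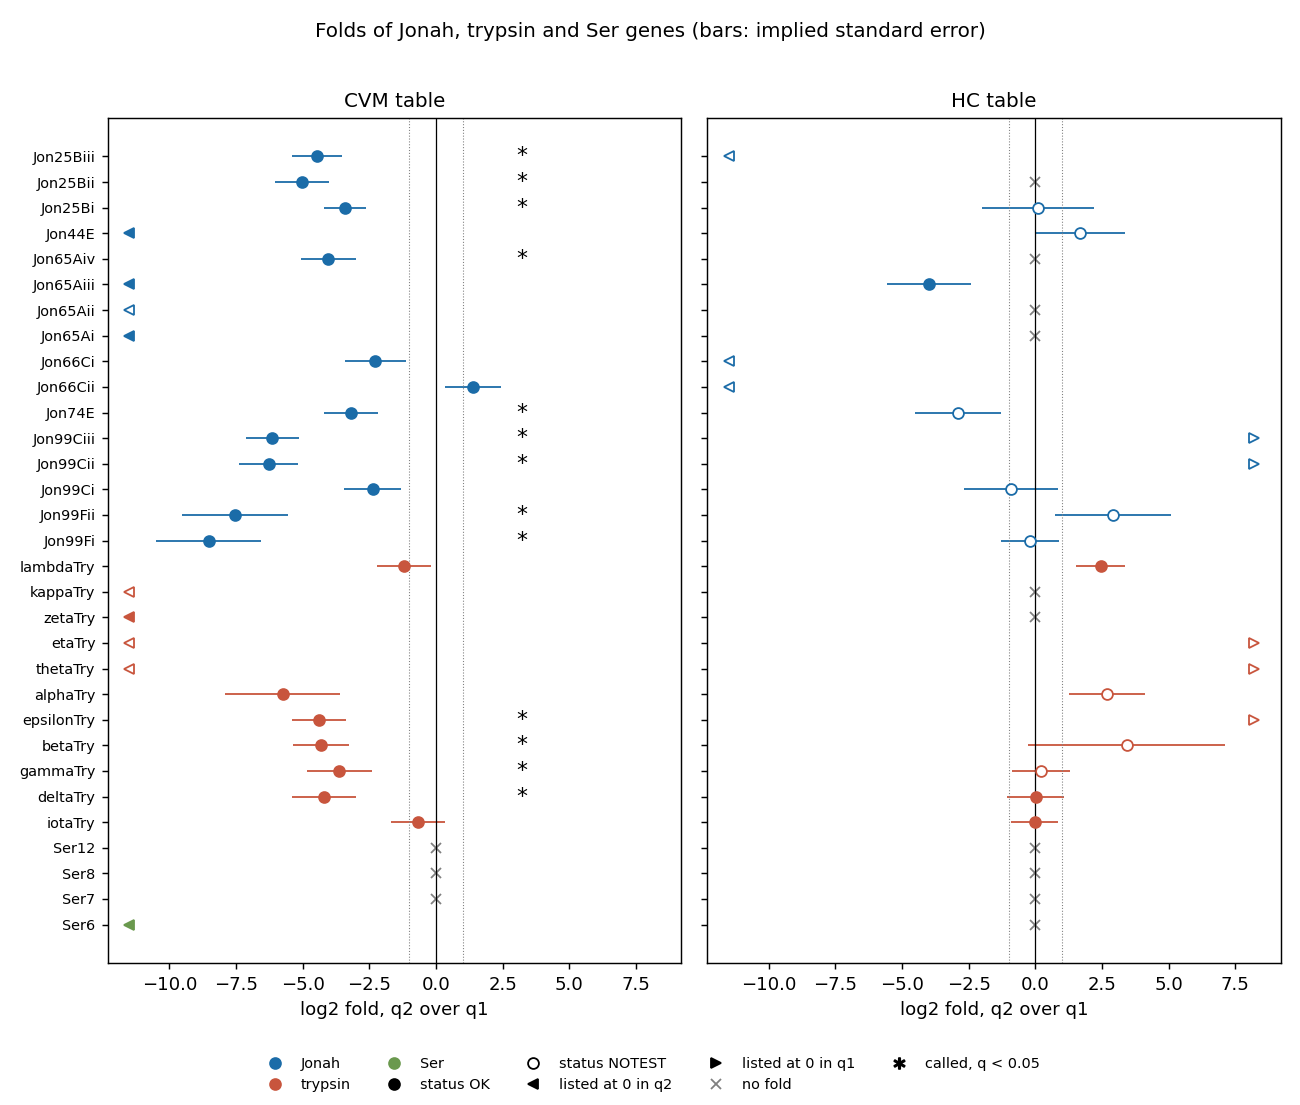
Log2 fold (q2 over q1) of each of the 31 members in the CVM and HC tables, with the implied standard error as bars. Filled symbols are status OK, open ones NOTEST, triangles are genes listed at 0 in 1 condition, crosses have no fold, and stars mark the 13 calls, which are all in CVM and on the q1 side.

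The Jon99F genes led the families. Jon99Fi (FBgn0039778) had a log2 fold of -8.53 with an implied error of 1.98 and a q-value of 0.000432 in the authors' deposited table, which is 369.8 times higher in q1. Ranked from the highest in q1, it was number 2 of 9580 measured genes. Jon99Fii (FBgn0039777) had -7.55 with an implied error of 1.99 (q-value 0.00305, number 7), also from the authors' deposited table. Both proteins have the same length, and whether the genes share reads was not tested. Their folds differed by 0.98 with a combined implied error of 2.81, so the order between them is not resolved.

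The Jon99C genes differed among themselves. Jon99Ciii and Jon99Cii had -6.14 (implied error 1.01, q-value 9.08e-08) and -6.27 (1.11, 8.7e-07) in the CVM table as the authors deposited it. The former q-value was the lowest of any member. Jon99Ci, 614 bases from Jon99Cii, had -2.38 (1.08) and was not called, with a q-value of 0.186 in the authors' deposited table. The difference of 3.89 between Jon99Cii and Jon99Ci was 2.52 times its combined implied error. Jon99Cii and Jon99Ciii differed by 0.13, 0.0901 times the combined implied error. Their proteins have the same length, and in HC both were listed at 0 in q1 with identical p-values from the authors. Whether these genes share reads was not tested, so their folds and calls may not be separate observations.

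All 3 Jon25B genes were called. Jon25Bii had -5.02 (q-value 2.22e-05), Jon25Biii -4.45 (6.15e-05) and Jon25Bi -3.40 (0.000439) in the authors' deposited CVM table, with implied errors of 0.93 for Jon25Biii and 0.79 for Jon25Bi. Neighbours in this group differed by at most 1.62 log2 units, 1.27 times the combined implied error.

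Of the Jon65A genes, Jon65Aiv had -4.04 (implied error 1.03, q-value 0.0019) in the authors' deposited CVM table. Other members of the group, Jon65Ai, Jon65Aii and Jon65Aiii, had infinite folds there, as did Jon44E, which means that they were listed at 0 in q2 and that no fold can be given. Jon65Ai had a q-value of 0.0964, Jon65Aiii 0.0971 and Jon44E 0.0738 in the authors' deposited table, so none was called, and Jon65Aii was NOTEST.

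Jon74E had -3.18 (implied error 1.01) with a q-value of 0.0229 in the authors' deposited CVM table. The Jon66C genes were divided. Jon66Ci had -2.27 (implied error 1.16, q-value 0.27) and Jon66Cii 1.40 (1.04, 0.586), neither called in the authors' deposited table. They lie 478 bases apart on opposite strands, and differed by 3.67, or 2.36 times the combined implied error.

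**Figure D3:**
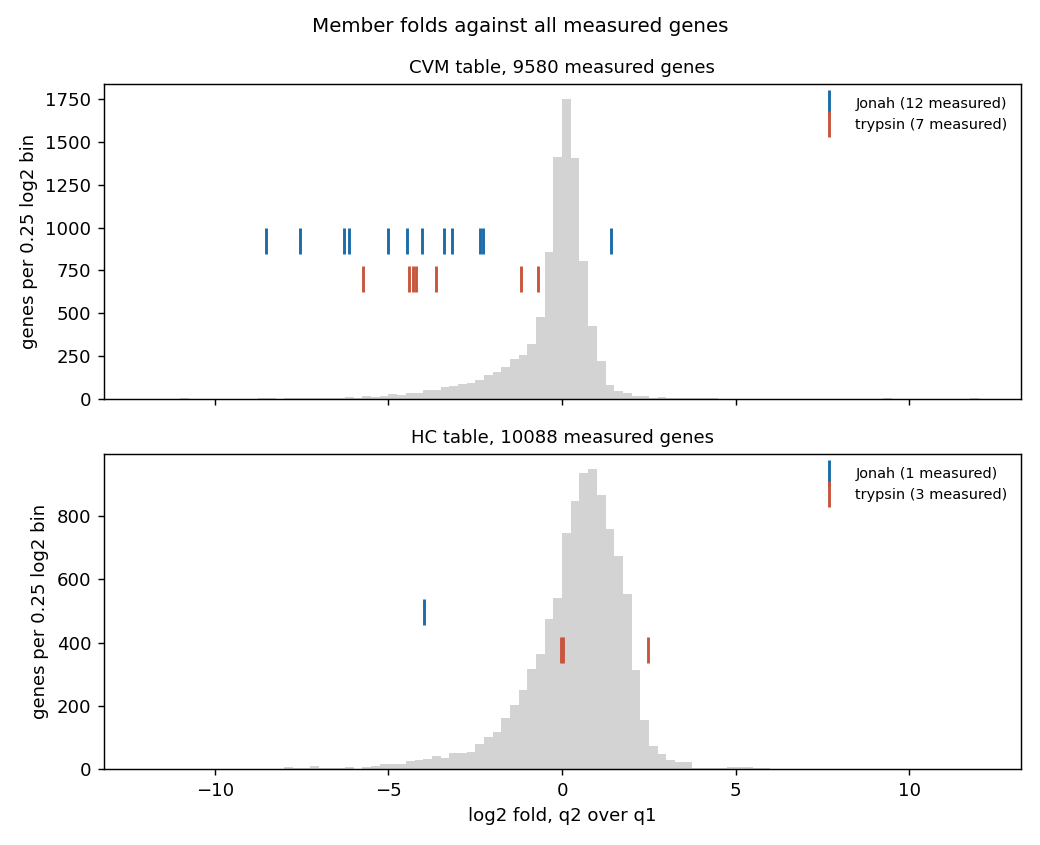
Histogram of log2 folds (q2 over q1; genes per bin of 0.25) of all 9580 measured genes of the CVM table and all 10088 of the HC table, with ticks for the measured Jonah and trypsin genes. In CVM, 18 of 19 ticks lie below 0; in HC there are 4 ticks, from -3.98 to 2.46.

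The trypsin cluster held both large folds and folds near 0. All 7 measured trypsins lay below 0 in the CVM table. epsilonTry had -4.40 (implied error 1.02, q-value 0.000424), betaTry -4.30 (1.06, 0.0011) and deltaTry -4.21 (1.20, 0.00752) in the authors' deposited table. alphaTry had a larger fold, -5.75, but also a larger implied error, 2.15, and was not called, with a q-value of 0.0754 in the authors' deposited table. At the ends of the cluster, lambdaTry had -1.19 (implied error 1.01, q-value 0.675) and iotaTry -0.68 (1.02, 0.867) in the authors' deposited table. These were the measured trypsins nearest the 2-fold threshold, lambdaTry just inside it and iotaTry just outside. iotaTry lies 228 bases from deltaTry, and their folds differed by 3.53, or 2.23 times the combined implied error. Between lambdaTry and alphaTry, in the order of the cluster, came kappaTry, zetaTry, etaTry and thetaTry, which were all listed at 0 in q2. Only zetaTry among these was tested, with a q-value of 0.227 in the authors' deposited table.

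gammaTry had the same values as a neighbouring gene. It had -3.62 (implied error 1.23) and a q-value of 0.0397 in the authors' deposited CVM table, the call nearest to the threshold of 0.05. CG30031, in the same cluster but with no name of the family, had the same fold and statistic as gammaTry to every digit, in the CVM table and in the HC table. CG30025, also within the cluster, had -3.59 (implied error 1.23, q-value 0.0428) in the authors' deposited CVM table. Its HC fold was 0.2149, against 0.2148 for gammaTry, both of status NOTEST. In the BDGP6 annotation CG30031 and CG30025 both encode proteins of 253 residues, the length of gammaTry and deltaTry. The sources used here do not say how reads matching several genes were assigned. Sequences were not compared, and whether these genes share reads was not tested. So gammaTry and CG30031 should not be counted as separate observations, and CG30025 may not be separate from them either. deltaTry shares its locus with CG13202, which had -0.16 (implied error 1.29) in the authors' deposited table, so reads at that locus may belong to either gene.

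**Figure D4:**
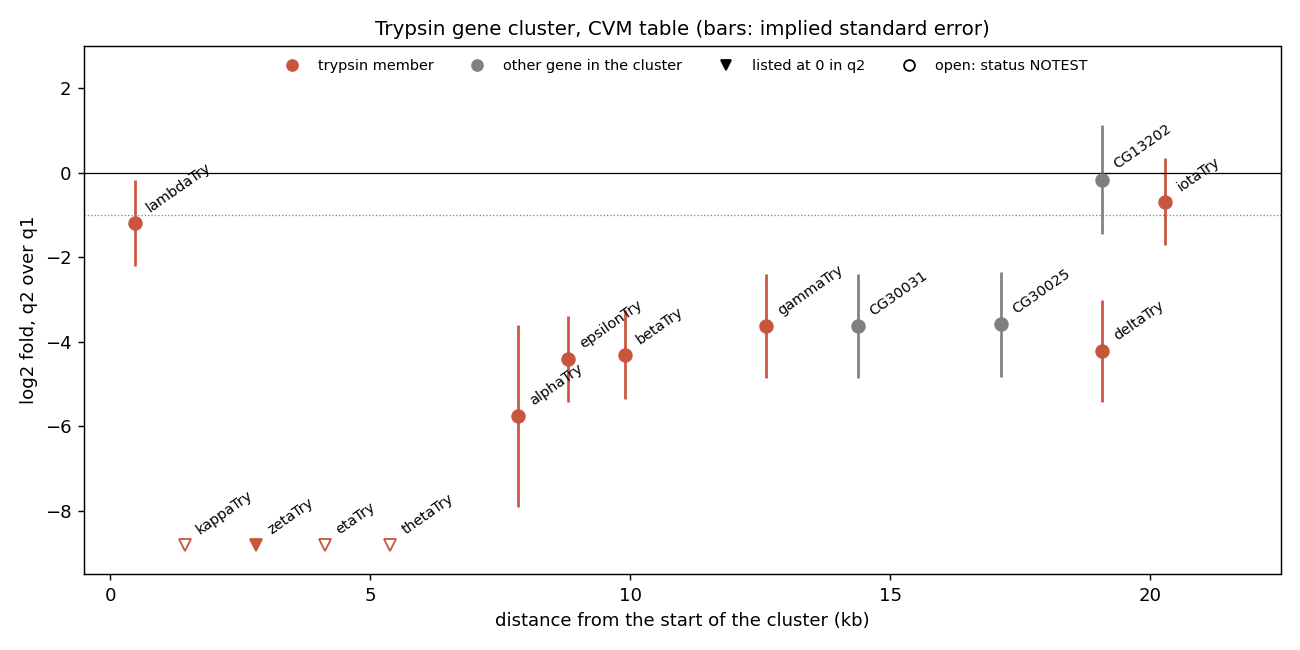
Log2 fold (q2 over q1) in the CVM table against distance from the start of the trypsin cluster (kb), with implied standard errors as bars. Triangles along the lower edge mark the 4 trypsins listed at 0 in q2, between lambdaTry at -1.19 and alphaTry at -5.75; grey points are genes of the cluster without a trypsin symbol.

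Consecutive measured members of a cluster made 12 pairs, of which 3 differed by more than 2 combined implied errors. The 3 were Jon99Cii with Jon99Ci, Jon66Ci with Jon66Cii, and deltaTry with iotaTry. Some of the 12 pairs had other genes between them, such as lambdaTry with alphaTry. The share among neighbouring genes in general was not computed. The members of a pair share their libraries, and such differences compare reads only.

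The Ser genes gave little signal. Ser6 was listed at 0 in q2 of the CVM table, with a q-value of 0.135 in the authors' deposited table. Ser7, Ser8 and Ser12 had a fold and statistic of exactly 0 in CVM and were not tested. In the HC table none of the 4 had a fold. Ser8 was tested in HC, but its locus of 24071 bases is shared with 11 other genes, several of them transfer RNA genes, and its q-value was listed as 1.01 in the authors' deposited table.

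In the HC table the members did not lie on a common side. Of the 21 members with a direction over all statuses, 8 were toward q1 (38.1%), against 31.5% of all genes with one, and 10 had no fold. By family, 7 of 12 Jonah genes with a direction (58.3%) and 1 of 9 trypsins (11.1%) were toward q1, most of them not tested. Of 4 measured members, 1 passed 2-fold on the q1 side and 1 on the q2 side, where 13.3% and 35.4% of the 10088 measured genes were in the authors' deposited table. None was called, where the authors called 5.75% of tested genes higher in q1 and 6.85% higher in q2. The authors' unadjusted p-value was under 0.05 for 2 of the 5 tested members, Jon65Aiii and lambdaTry. Over all genes it was under 0.05 for 3224 of the 10749 tested, so the count says nothing particular about the members.

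Jon65Aiii had -3.98 (implied error 1.58, q-value 0.0725) in the authors' deposited table for HC, the only Jonah gene tested there. lambdaTry had 2.46 (implied error 0.92, q-value 0.0564) there. Its CVM fold was -1.19 (implied error 1.01, q-value 0.675) in the authors' deposited CVM table. The signs differ, but neither fold was called, and the CVM value is not told apart from 0. The median of all measured genes in the HC table was 0.62, and relative to it lambdaTry stood at 1.84 and Jon65Aiii at -4.60. deltaTry had 0.02 and iotaTry -0.03 in the authors' deposited table for HC, or -0.60 and -0.64 relative to the table's median. The implied errors of this pair were 1.08 and 0.88, so neither value is told apart from 0 or from that median.

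Most HC folds of the families rest on too few reads for the authors' test and are given as listed. Jon74E had -2.89 (implied error 1.61), Jon99Ci -0.89 (1.77), Jon99Fi -0.18 (1.09), gammaTry 0.21 (1.09) and Jon25Bi 0.11 (2.10) in the authors' deposited table. On the q2 side, betaTry had 3.43 (3.71), Jon99Fii 2.91 (2.18), alphaTry 2.70 (1.43) and Jon44E 1.69 (1.67) there. Jon25Biii, Jon66Ci and Jon66Cii were listed at 0 in q2, and Jon99Cii, Jon99Ciii, epsilonTry, etaTry and thetaTry at 0 in q1. Of 11 members with a finite fold in both tables, all lay toward q1 in CVM, the side on which the families were selected. In HC, 4 of them lay toward q1 and 7 toward q2. Of all genes with a direction, 53.9% lay toward q1 in CVM and 31.5% in HC, so the HC count is near that share. Whether q1 plays the same part in the 2 tables is not given, and the stages differ, so these values stand side by side only.

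Most other digestive enzymes that were measured lay toward q1 in the CVM table. The list held amylases, maltases, lipases, lysozymes and sterol-handling proteins, of which 27 genes were matched and 14 measured. Of these, 10 passed 2-fold on the q1 side and 0 on the q2 side, where 17.6% and 4.58% of all measured genes did; 6 were called toward q1, against 8.23% of all tested genes, 3 more of status OK were listed at 0 in q2, and the median was -3.28. The amylase Amy-p had -5.89 (q-value 0.00312), the lipase Lip1 -4.43 (0.00145) and the maltase LvpH, at a shared locus, -4.33 (0.000578) in the authors' deposited table. In HC, 1 of 10 measured genes passed 2-fold toward q1 and 2 toward q2, against 13.3% and 35.4% of all genes. The median was 0.25, below the table's 0.62. The maltase CG30359 (Mal-A5) was the only call among 12 tested, at -2.39 (q-value 0.0132) in the authors' deposited table. Of all tested genes in HC, 5.75% were called higher in q1.

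The list of other serine proteases included enzymes of immunity, patterning and reproduction and a relative of the Jonah genes. It had 7 of 11 measured members past 2-fold toward q1 in CVM and 0 toward q2, against 17.6% and 4.58% of all genes, and a median of -2.01. Of 13 tested, 2 were called toward q1 and 0 toward q2, against 8.23% and 0.728% of all tested genes. The calls were CG6361 (Hayan, an immune protease), at -2.88 (q-value 0.0179), and MP1, whose locus is shared, at -2.76 (8.61e-05) in the authors' deposited table. The authors' deposited table lists yip7, the Jonah relative, at -2.56 with a q-value of 0.14. In HC, 6 of 12 passed 2-fold toward q1 and 1 toward q2, against 13.3% and 35.4% of all genes. The median was -0.50. Of 13 tested in HC, 1 was called toward q1 and 0 toward q2, against 5.75% and 6.85% of all tested genes. The call was Tequila, a large multidomain protease, at -2.89 (q-value 3.66e-05) in the authors' deposited table.

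Serpins, which inhibit serine proteases, had 6 of 16 measured genes past 2-fold toward q1 of CVM and 0 toward q2, against 17.6% and 4.58% of all genes, and a median of -0.69. Spn27A, an inhibitor in the melanization and Toll pathways at a locus shared with other genes, was called at -2.20 (q-value 0.00611) in the authors' deposited table. It was the only call among 16 tested, where 8.23% of all tested genes were called higher in q1. In HC 2 of 14 passed it toward q1 and 6 toward q2, counts near the shares of 13.3% and 35.4% over all genes, and the median of 0.20 was below the table's 0.62. Of 14 tested in HC, 2 were called toward q1 and 1 toward q2, against 5.75% and 6.85% of all tested genes. The calls there were CG6687 (Spn88Eb) at -5.68, Spn27A at -2.34 and CG6289 (Spn77Bc) at 2.97 in the authors' deposited table.

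Midgut markers were divided in CVM. Of 7 measured, 3 passed 2-fold toward q1 and 0 toward q2, against 17.6% and 4.58% of all genes, and there was a median of -0.16. mex1, a midgut-expressed gene, had -2.92 (q-value 0.00679) and yin, a peptide transporter, -2.82 (0.0146), and both were called in the authors' deposited table. They were the only calls among 7 tested, where 8.23% of all tested genes were called higher in q1. inx7, a gap junction protein at a shared locus, had -1.47, and the transcription factors fkh, GATAe, lab and hkb had -0.16, 0.33, 0.63 and 0.88, without a call in the authors' deposited table. In HC 6 of 7 passed 2-fold toward q2 and 0 toward q1, against 35.4% and 13.3% of all genes, and the median was 1.35, where that of all genes was 0.62. The only call among 7 tested there was fkh, at 1.63 (q-value 0.0132) in the authors' deposited table. Of all tested genes in HC, 6.85% were called higher in q2. The part of gut cells in the protease folds was not tested.

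Markers of the sorted cells lay mainly in q1 of their own table. In CVM, 8 of 9 markers of the caudal visceral mesoderm passed 2-fold on that side, against 17.6% of all measured genes. HLH54F, the specifying factor of that mesoderm, had -6.04 in the authors' deposited table. Antp was the exception, at 1.21 there, and called. Of 10 measured hemocyte markers, 9 passed 2-fold in q1 of HC, against 13.3% of all measured genes. Hml was the exception, at 1.34 in the authors' deposited table for HC, and not called. In q1 of CVM, 5 of 10 measured hemocyte markers passed it, against 17.6% of all measured genes, and their median was -0.93. In HC, 2 of 8 markers of the caudal visceral mesoderm passed 2-fold toward q1 and 6 toward q2. The shares over all measured genes there were 13.3% and 35.4%.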

How the data were processed

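The analysis used 2 gene tables in Cuffdiff's layout, made by the authors from 1 library per population. Cuffdiff, TopHat 1.3.3, Bowtie 0.12.7, Cufflinks 1.3.0 and the build BDGP5 are named in the submitters' processing notes. Per the file headers, folds are q2 over q1 on the log2 scale in CVM and the natural log scale in HC; HC folds were converted to log2. The fold, statistic and HC q-value columns were read as a score, per the file headers and the values, because infinite folds are written as extreme numbers and HC q-values reach 1.03. Every p-value and q-value is the authors', as deposited. The FPKM columns (4 in all) were left out, because no label names the conditions, so levels were not compared between members or populations, as had been planned if the headers named them. The depth is unknown.

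Measured genes have the status OK and a finite fold, leaving out those with fold and statistic both exactly 0. The implied standard error is the log2 fold divided by the statistic. No test was made, since 1 library per population allows none; a size rule of at least 2-fold stands beside the authors' calls (q-value under 0.05). Locus starts were taken to count from 0 and are printed from 1: of 8717 unshared loci, 1488 matched the annotated gene length on that count and 146 on a count from 1, and the others matched neither. Members within 20 kb form a cluster. List symbols were matched directly or through current gene names, and symbols naming the same gene were counted once. Every member could be named, and of other lists up to 3 called genes per direction and table. Members of the midgut list, HLH54F, Antp, Hml and yip7, and the genes inside clusters, were named after their values were seen. The members and lists were chosen with earlier results of these data known. Scripts (Python 3.11.15, pandas 2.3.3) were checked on simulated tables.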

Additional observations from a re-analysis of the deposited data

How the results depend on the processing

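Of 36 alternative values for counts and medians, 29 kept their direction and stayed within 1.5 times of a count or within the median implied error of a median. All alternatives for the CVM table did so except the 4-fold threshold, under which 0 members in place of 1 were higher in q2 (Jon66Cii). Part of this agreement was fixed in advance, so the 29 do not measure stability. Every CVM member with a finite fold was already of status OK, so admitting every status could not change a CVM value. No Jonah gene shares its locus, and a count of 0 calls cannot rise under a stricter rule. Centring moved CVM folds by only 0.0047. The count higher in q1 there was 16 to 17, and that of calls 11 at a q-value under 0.01 and 12 without deltaTry, which shares its locus. The HC values rest on 1 Jonah gene and 3 trypsins. With every status admitted, 2 members passed 2-fold toward q1 and 5 toward q2 in HC, in place of 1 and 1, the Jonah median moved from -3.98 to -0.18 and the trypsin median from 0.02 to 1.34. The trypsin median reversed to -0.60 after centring on the table's median of 0.62, and stood at 1.22 without deltaTry, leaving lambdaTry and iotaTry. With 1 library per population nothing here measures variation between samples, and folds of members with few reads are limited by depth.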
